A study of Mus musculus with 2 samples.

Results

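The genes described here encode the Polycomb repressive complexes and the enzymes that add methyl groups to histones or remove them. Their RNA was read on 2 microarrays of mouse bone marrow cells, 1 labelled GFP and 1 labelled Satb1. Members were the probe sets annotated to exactly 1 gene whose current symbol starts with Kdm, Kmt2, Setd, Nsd, Prmt, Pcgf or Cbx and a number, or is one of a fixed set of Polycomb and SET domain genes such as Ezh2, Suz12 and Dot1l. Kdm5c, Kdm5d, Kdm6a and Y-linked genes were left out. The rule took 177 of 45037 probe sets, and 68 of 18193 genes. One member, Nsdhl, a sterol dehydrogenase gene of cholesterol synthesis, entered through the letters of its symbol and modifies no histone. Its intensity was 1841 on the GFP array and 1894 on the Satb1 array.

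Polycomb repressive complex 2 (PRC2) methylates lysine 27 of histone H3 (H3K27), and Polycomb repressive complex 1 (PRC1) binds that mark and adds ubiquitin to histone H2A. Both keep developmental genes silent, and in blood stem cells they are known for holding back differentiation genes and cell cycle inhibitors. Other SET domain enzymes methylate H3K4 and H3K36, marks of active genes, or H3K9, a mark of heterochromatin that HP1 proteins read. The Kdm enzymes remove methyl groups from lysines, and the Prmt enzymes add them to arginines.

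One array is labelled as RNA of GFP-transduced control cells and the other as RNA of Satb1-transduced cells; they are called the GFP array and the Satb1 array after these labels. The mice were wild-type C57BL6J in both groups, and the cells are named LSK Flt3-, the marrow cells that carry Sca-1 and high c-Kit but neither lineage markers nor Flt3. The Satb1 protein folds chromatin by binding DNA rich in A and T. Each group had 1 array, so no difference below has a replicate error or a p-value. The sources used here do not give age, sex, the number of animals or cultures, or the time after transduction. In bulk RNA, fewer cells of a type and less RNA per cell cannot be told apart.

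Satb1 RNA, the check on the labels, did not stand higher on the Satb1 array. For Satb1 the values of its brightest probe set were 1116 (GFP array) and 909 (Satb1 array). The other 2 Satb1 probe sets with both values above the floor defined below were lower as well, at 964 and 908 and at 288 and 165. Whether these probes cover the transduced sequence was not analysed here. The values thus do not bear out the label, and with that coverage unknown they cannot decide whether it is right. Every direction below rests on the labels alone. Transcripts of other cell types differed between the arrays. Of 8 granulocyte markers, all above the floor, 5 were at least 2-fold higher on the Satb1 array and 0 lower, and their summed intensity was 25471 on the GFP array and 36494 on the Satb1 array. Of 4 mast cell and basophil markers, 3 were at least 2-fold lower, with sums of 13696 and 7421. Of 4 megakaryocyte and 4 erythroid markers, 0 were 2-fold apart, with sums of 25356 and 29489 and of 562 and 788. The erythroid markers Hba-a1 (6.6 and 3.8) and Alas2 (1.6 and 1.3) were near 0 on both arrays. The lineage antigen genes Cd3e, Cd4, Cd79a and Ms4a1 were below the floor on both arrays, while Itgam (127 and 121) and Cd8a (88.9 and 148) were above it, and the list summed to 327 and 319. Of the 5 measured markers of the labelled fraction, with sums of 13476 and 13277, Kit (3293 and 3388) was present and Slamf1 (95.7 and 233) was 2-fold higher. Flt3 (1390 and 1334) was present too, although the label names cells without surface Flt3. The part of these cell types in the values below was not tested.

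Few genes were 2-fold apart on the arrays, and no member was. Values are MAS5 intensities, a linear brightness per probe set, and those below a floor of 61.7, the median of all values, were set to that floor. Each gene was represented by its brightest probe set. A gene was counted where the floored values were at least 2-fold apart. By this rule 0 of 65 members above the floor were higher and 0 lower, where 1.13% of all 11048 genes above the floor on at least 1 array were 2-fold apart. With so small a share, 0 of 65 does not set the members apart. At 1.5-fold, 1 member was counted, against 5.66% of all genes in either direction. It was Cbx7, which was higher on the Satb1 array, as were 1.75% of all genes. The remaining members, Kdm4d, Pcgf2 and Prmt8, were below the floor on both arrays.

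All 65 members above the floor on 1 array were above it on both. Their median log2 difference, Satb1 array minus GFP array, was -0.02, the same as the -0.02 of all 10316 genes above the floor on both arrays. Their differences ran from -0.41 for Setdb2 to 0.70 for Cbx7, with an SD of 0.19 across genes, where all genes had an SD of 0.29. Members and all genes were not matched for intensity, on which this spread depends. The middle 50% of all genes lay between -0.17 and 0.11, and 39 of the 65 members (60%) lay inside it. By sign alone, 27 members were higher and 38 lower (58.5%), where 54.3% of all genes were lower. This split turned with the scaling, to 32 higher and 33 lower after quantile normalization and to 39 higher and 26 lower after centring each array on its median.

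**Figure D1:**
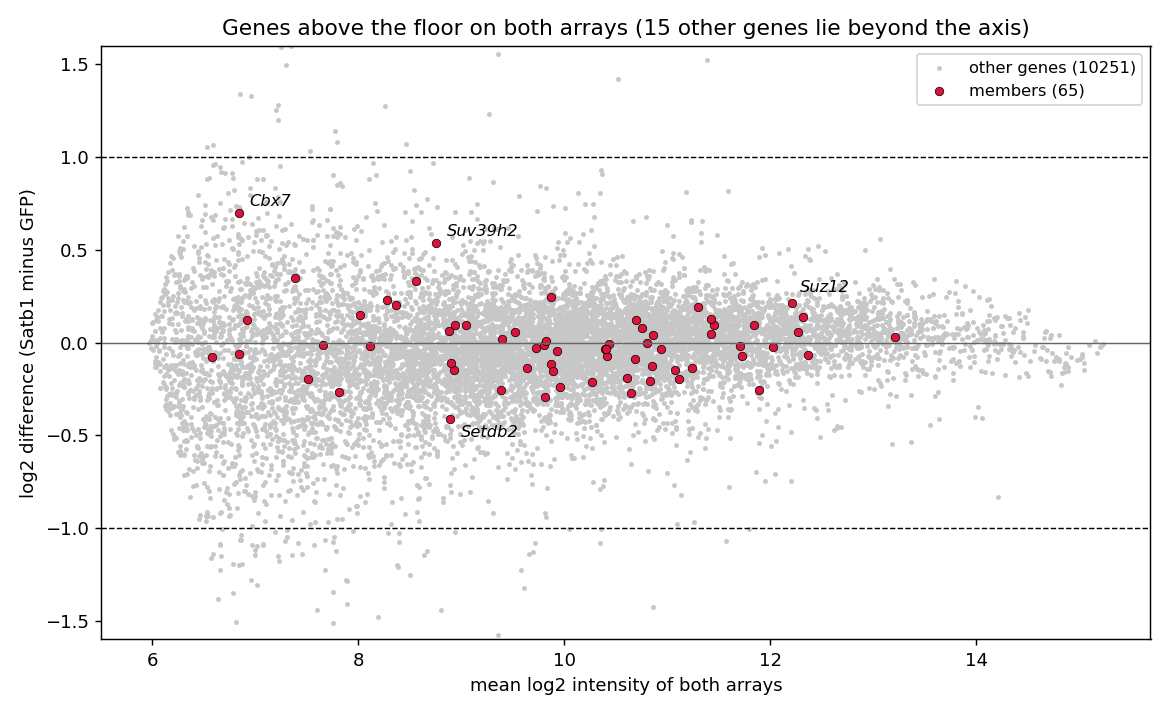
Log2 difference (Satb1 array minus GFP array) against mean log2 intensity for each gene above the floor on both arrays, with the 65 members in red and the other 10251 genes in grey. Dashed lines mark 2-fold. All red points lie between the dashed lines, from -0.41 (Setdb2) to 0.70 (Cbx7), and 15 other genes lie beyond the plotted range.

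The only error available was how far the probe sets of a gene differ from each other. Over all genes, this within-gene SD of the log2 difference narrowed with brightness: it was 0.36 below a mean of 200, 0.28 between 200 and 500, 0.19 between 500 and 2000, and 0.13 above 2000. Error that the probe sets of a gene share cancels in it, so it is not the error of a difference between arrays. The SD of the log2 difference over all probe sets, called the overall SD below, also holds differences between genes and was wider in each of these ranges, at 0.41, 0.33, 0.24 and 0.18. Over the member probe sets alone it was 0.39, 0.33, 0.18 and 0.15. Of the 138 member probe sets above the floor on at least 1 array, 0 were 2-fold apart, against 1.18% of such probe sets of all genes, and 7 were at least 1.5-fold apart (5.07%), against 7.19%. These 7 were dim. With both arrays above the floor, 4 of 27 member probe sets under 200 (14.8%) were 1.5-fold apart, where 14.6% of all probe sets of that intensity were, and 3 of 37 from 200 to 500 (8.11%), where 7.94% were. Of the 49 from 500 to 2000 and the 20 over 2000, 0 were, against 2.41% and 1.02% of all probe sets.

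**Figure D2:**
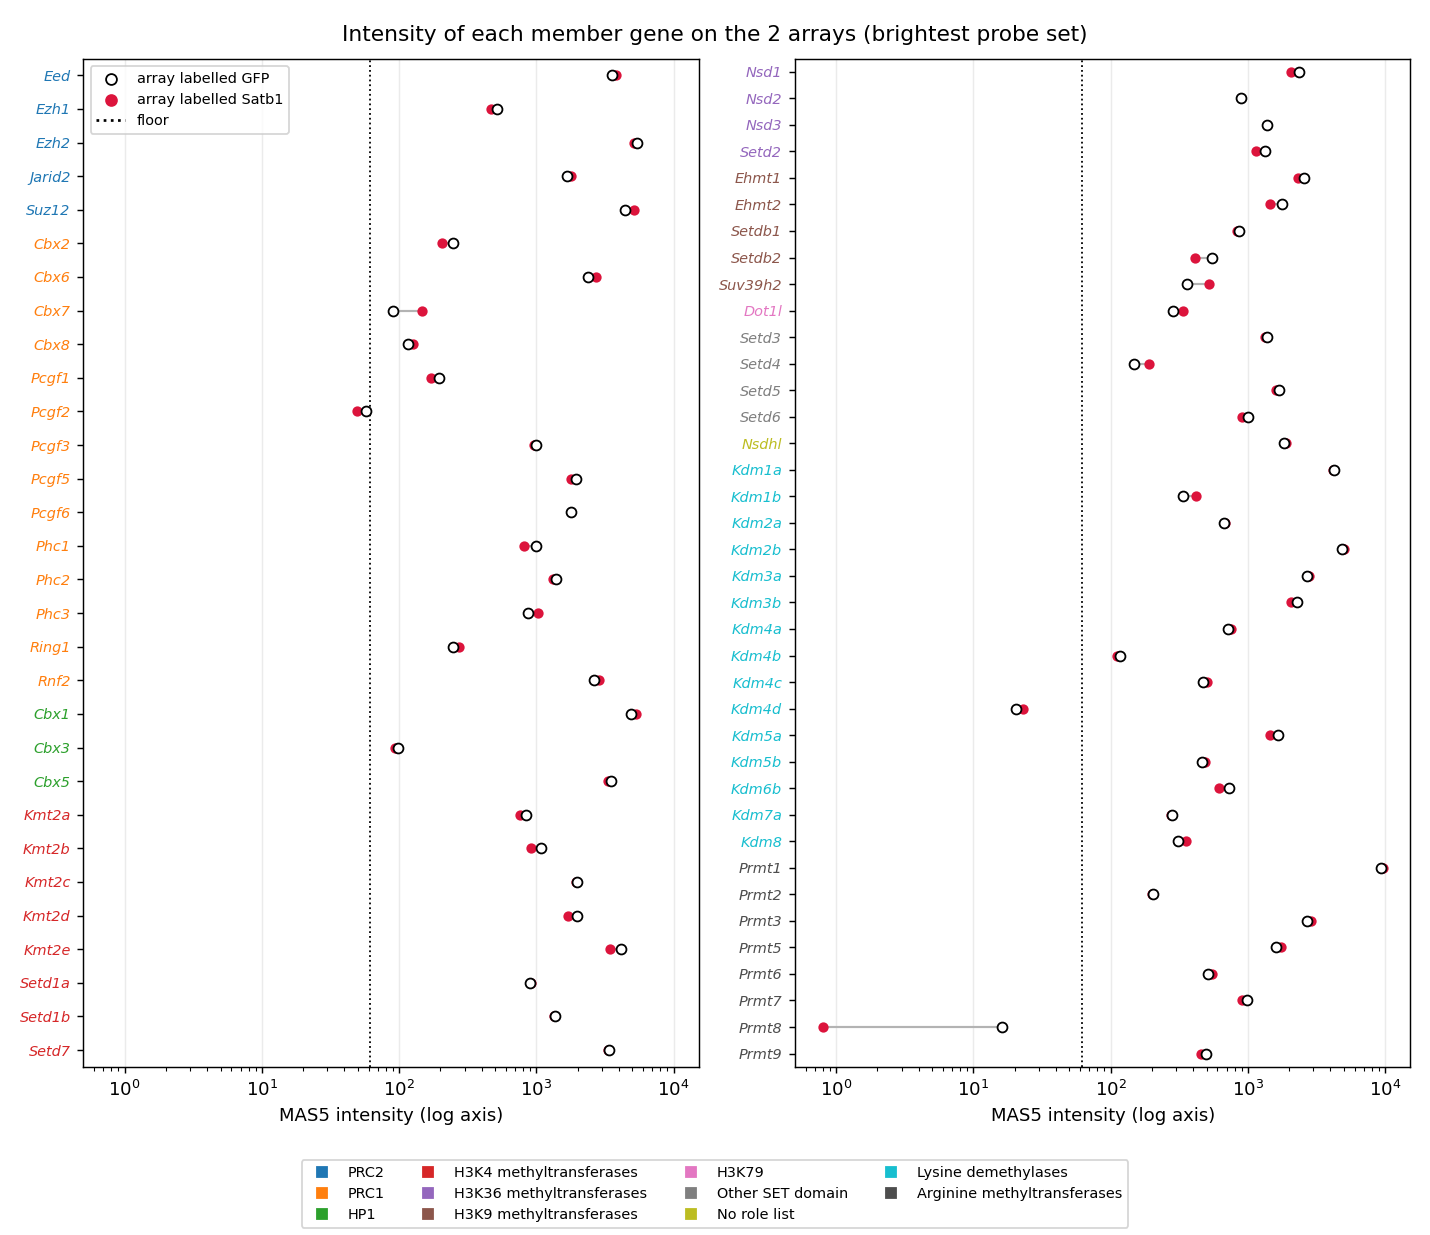
MAS5 intensity (log axis) of the brightest probe set of each of the 68 member genes, with open circles for the array labelled GFP and red points for the array labelled Satb1; label colours give the role. The dotted line is the floor of 61.7. The points of most genes overlap or touch, the gap at Cbx7 is the widest above the floor, and Kdm4d, Pcgf2 and Prmt8 lie below the floor.

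Promoter windows are shown for the members that stood furthest from the control array, Cbx7 and Suv39h2 above and Setdb2 below, and for Suz12, whose probe sets all went one way. Each is the RefSeq window of 300 bases, from 250 before to 50 after the annotated start of the gene, on the strand of the gene in the build GRCm38.p6. Capitals mark CG dinucleotides, the target of the CXXC domain that several members carry (Kdm2a, Kdm2b, Kmt2a and Kmt2b). No binding or methylation was measured here.
Suz12, chr11:79992856-79993155, plus strand: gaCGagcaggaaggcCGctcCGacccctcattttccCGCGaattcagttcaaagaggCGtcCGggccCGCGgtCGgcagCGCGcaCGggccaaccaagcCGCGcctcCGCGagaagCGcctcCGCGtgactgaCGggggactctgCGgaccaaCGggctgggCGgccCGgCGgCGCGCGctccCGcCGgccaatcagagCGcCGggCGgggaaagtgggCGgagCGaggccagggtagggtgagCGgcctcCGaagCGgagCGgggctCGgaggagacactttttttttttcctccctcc
Cbx7, chr15:79932597-79932896, minus strand: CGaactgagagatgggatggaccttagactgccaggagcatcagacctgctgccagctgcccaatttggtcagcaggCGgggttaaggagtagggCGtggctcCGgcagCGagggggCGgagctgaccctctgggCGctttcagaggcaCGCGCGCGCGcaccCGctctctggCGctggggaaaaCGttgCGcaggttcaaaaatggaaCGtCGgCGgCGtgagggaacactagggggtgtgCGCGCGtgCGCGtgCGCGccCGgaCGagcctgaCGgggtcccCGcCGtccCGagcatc
Suv39h2, chr2:3474937-3475236, minus strand: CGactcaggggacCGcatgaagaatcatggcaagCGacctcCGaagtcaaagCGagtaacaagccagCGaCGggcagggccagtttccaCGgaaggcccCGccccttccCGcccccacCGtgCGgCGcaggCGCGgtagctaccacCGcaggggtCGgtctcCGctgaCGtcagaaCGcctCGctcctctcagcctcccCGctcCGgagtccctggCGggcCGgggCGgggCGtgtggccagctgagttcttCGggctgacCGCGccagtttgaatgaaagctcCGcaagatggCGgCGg
Setdb2, chr14:59440831-59441130, minus strand: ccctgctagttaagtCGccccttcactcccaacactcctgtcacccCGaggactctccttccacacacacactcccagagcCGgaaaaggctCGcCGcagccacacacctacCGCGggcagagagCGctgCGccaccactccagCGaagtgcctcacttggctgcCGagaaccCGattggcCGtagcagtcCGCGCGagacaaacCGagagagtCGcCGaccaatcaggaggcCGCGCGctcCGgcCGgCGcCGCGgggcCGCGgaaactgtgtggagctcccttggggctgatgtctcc

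The Suz12 window held 41 CG dinucleotides, that of Cbx7 33, that of Suv39h2 33 and that of Setdb2 29. CG reads the same on both strands. Windows were found for 55 of the 68 member genes, 71 windows in all, because some genes have several starts; windows on chromosomes 18 and Y were not used. Their median was 28 CG, and 70.4% held at least 20, where the 32619 windows of all genes had a median of 7 and 26.7% held at least 20. A and T made up a median of 35.7% of the bases in member windows and 47% in all windows. Runs of at least 10 A or T bases, in any order, were in 9 of the 71 member windows (12.7%) and in 23.4% of all windows. Of the printed windows only that of Suz12 had one, a run of 11 just after the start. Members higher and lower on the Satb1 array had similar windows, with medians of 36.3% and 34.7% A and T and of 24 and 29 CG. These are descriptions of the letters and were not tested. The windows of all genes cover 26794 genes and were not limited to those on the arrays or above the floor. Nearly all members were above the floor, so members and all windows are not like sets of genes.

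In PRC2, 0 of 5 members were 1.5-fold apart, which says little where 5.66% of all genes were. Suz12, a core subunit that the methyltransferase needs for activity and stability, was the member whose probe sets went one way most often. Its brightest probe set (1420021_s_at) read 4414 on the GFP array and 5120 on the Satb1 array, a 1.16-fold difference. On both arrays all 6 of its probe sets were above the floor, and all 6 were higher on the Satb1 array, with log2 differences from 0.21 to 0.61 and a median of 0.28. The second (1427253_s_at) read 2712 and 3411, and the third (1452364_at) 1808 and 2202. The widest difference was that of 1420020_at, at 242 and 369. All 6 remained higher after quantile normalization (0.18 to 0.71). Median centring adds the same small amount to every difference, so it could not turn a higher one (0.27 to 0.66). Probe sets of 1 gene can share target sequence, so they are not independent readings.

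The other core subunits differed less. Ezh2, the main H3K27 methyltransferase of dividing cells, read 5423 on the GFP array and 5178 on the Satb1 array by its single probe set. Eed, which binds the methylated lysine and stimulates the enzyme, read 3544 and 3790. These differences, of -0.07 and 0.10, were smaller than the within-gene SD of 0.13 at that intensity. Ezh1, the homologue of Ezh2 that prevails in resting cells, read 514 and 464, and its other probe set above the floor read 91.3 and 71.9. Both probe sets were lower, by 0.15 and 0.34 on the log2 scale, the first within the SD of 0.28 and the second within 0.36. Jarid2, which helps PRC2 bind chromatin, read 1684 and 1775, while the remaining ones were lower, at 1441 and 1320 and at 474 and 460.

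In PRC1, 13 of 14 members were above the floor, 6 of them higher and 7 lower by some amount (8 and 5 after median centring), with a median log2 difference of 0.00. Rnf2, the main ubiquitin ligase subunit (RING1B), read 2625 on the GFP array and 2867 on the Satb1 array by one probe set and 1787 and 1636 by another, so its probe sets disagreed in sign. Ring1, its homologue, read 246 and 272. Neither ligase subunit differed by more than the within-gene SD at its intensity.

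The Pcgf subunits define the variants of PRC1. Pcgf6 read 1796 and 1791, and Pcgf3 991 and 959, both nearly equal. Pcgf5 read 1937 and 1776, and its second probe set 1757 and 1796. Another Pcgf5 probe set (1453636_at) differed most among the lower ones of all members, at 496 on the GFP array and 272 on the Satb1 array, a log2 difference of -0.87. A dim Pcgf6 probe set (1432108_at) read 217 and 142, and a dim Pcgf3 probe set 84.2 and 120. For each of these genes the brightest probe set, and for Pcgf5 the second as well, did not show such a difference. Pcgf1 read 195 and 171, and Pcgf2 (57.7 and 49.3) was below the floor.

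The Cbx subunits of PRC1 bind methylated H3K27, and Cbx7 is known for maintaining self-renewal of blood stem cells. Cbx7 had the widest difference of any member. Its probe set 1433557_at read 90.0 on the GFP array and 146 on the Satb1 array, a 1.62-fold difference (log2 0.70, within-gene SD 0.36 at that intensity). The other 2 Cbx7 probe sets were below the floor on both arrays and lower on the Satb1 array, at 53.7 and 37.1 and at 25.9 and 4.8. Raising the floor to the 75th percentile of all values put both Cbx7 values below it. Cbx6 read 2363 and 2700, and its second probe set also was higher, at 661 and 728. Cbx8 read 116 and 127, and Cbx2 248 and 206. The polyhomeotic subunits, which join PRC1 complexes to each other, went both ways. Phc1 read 995 on the GFP array and 813 on the Satb1 array, a difference of -0.29, and Phc3 read 863 and 1023, a difference of 0.25. Both were beyond the within-gene SD of 0.19, and that of Phc3 was close to the overall SD of 0.24. Phc2 read 1397 and 1327, and its other probe set 972 and 782.

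HP1 proteins read methylated H3K9 and hold heterochromatin together. Cbx1 (HP1 beta) read 4879 on the GFP array and 5363 on the Satb1 array. All 5 of its probe sets were higher, with log2 differences from 0.11 to 0.90. The widest came from a dim probe set whose suffix marks possible cross-hybridisation (1422935_x_at, 169 and 315), which was 2-fold apart after quantile normalization (1.02), the one member probe set that was. Without that probe set and the other of its kind, the differences reached 0.36. Cbx5 (HP1 alpha) read 3474 and 3304, with 1 of 4 probe sets higher and 3 lower. Cbx3 (HP1 gamma) was read by a single dim probe set, at 98.1 and 93.0.

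Lysine methyltransferases for H3K4, H3K36 and H3K9 were mostly lower by small amounts. Of 17 such members, 15 were lower on the Satb1 array and 2 higher, where 54.3% of all genes were lower. The median log2 difference was -0.14. At 1.5-fold 0 of the 17 were counted, against 5.66% of all genes. After quantile normalization 13 of 17 were lower, after median centring 9 of 17, and with the mean over the probe sets of each gene 14 of 17. Median centring moved the median of all genes from -0.02 to 0.03. The share of all genes that were lower in these settings is not given here. Counting every one of their probe sets with 2 values above the floor, 27 of 38 were lower and 11 higher. Of such probe sets of all genes, 9639 of 18506 were lower. The pooling of these role lists was not set beforehand. It takes in Kmt2e, which lacks clear methyltransferase activity. It leaves out the lysine methyltransferases Ezh1 and Ezh2, both lower, and Dot1l, which was higher. The shares describe the pooled lists only and were not tested.

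Apart from Kmt2e, the Kmt2 genes encode the large H3K4 methyltransferases of COMPASS-like complexes. Kmt2a (MLL1) sustains Hox gene expression in blood stem cells. All 5 Kmt2 genes were lower on the Satb1 array by their brightest probe set, with a median of -0.21. Kmt2b read 1084 on the GFP array and 916 on the Satb1 array, and Kmt2d 1964 and 1701. Kmt2e, which lacks clear methyltransferase activity, read 4142 and 3466. By the brightest probe set, only the Kmt2e difference (-0.26) was clearly beyond both the within-gene SD of 0.13 and the overall SD of 0.18 at its intensity. Its 4 probe sets above the floor split into 2 lower and 2 higher, however. With the mean over its probe sets the Kmt2e difference was 0.09. The Kmt2b difference (-0.24) equalled the overall SD of 0.24, and that of Kmt2d (-0.21) was inside it and was -0.10 with the mean over its probe sets. Kmt2a read 835 and 760, with its second probe set at 439 and 434. Kmt2c read 1990 and 1941, and its second probe set 1656 and 1486.

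Not every Kmt2 probe set was lower. Of 12 above the floor on both arrays, 9 were lower and 3 higher, where 9639 of 18506 such probe sets of all genes were lower. Of the 3 higher, 2 belonged to Kmt2e (652 and 958, and 644 and 794) and 1 to Kmt2c (538 and 677). After median centring 4 of the 5 genes were lower, Kmt2c being the exception (0.02), and with the mean over probe sets 4 of 5, Kmt2e being the exception (0.09). After quantile normalization all 5 were lower. The other H3K4 enzymes were nearly equal. Setd1a read 904 and 910, Setd1b 1369 and 1334, and Setd7 3373 and 3331. By contrast 1450336_at, a dim Setd1a probe set, gave 157 and 91.5, a log2 difference of -0.78 that its brightest one did not show.

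All 4 H3K36 methyltransferases were lower by their brightest probe set, 2 of them by very little. Setd2, which trimethylates H3K36 behind the polymerase, read 1331 on the GFP array and 1149 on the Satb1 array. Nsd1 read 2379 and 2078. The Setd2 difference (-0.21) was inside the overall SD of 0.24, and that of Nsd1 (-0.19) was close to its overall SD of 0.18. With the mean over its probe sets the Nsd1 difference was -0.06. Nsd2 read 897 and 890 and Nsd3 1387 and 1381, and both were higher after quantile normalization and after median centring. The 6 Nsd3 probe sets ran from -0.52 to 0.26. Of the 14 probe sets of these 4 genes with both values above the floor, 10 were lower and 4 higher. Of such probe sets of all genes, 9639 of 18506 were lower.

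H3K9 methyltransferases included the members furthest apart in both directions among the lysine methyltransferases. Setdb2 was the lowest of all members, at 549 on the GFP array and 413 on the Satb1 array by its single probe set, a 1.33-fold difference (log2 -0.41, within-gene SD 0.28). Suv39h2, which trimethylates H3K9 in heterochromatin, was the highest of them, at 359 and 520, a 1.45-fold difference (log2 0.54). Its second probe set went the other way, at 385 and 330, and the dimmest read 93.4 and 119. The mean over its probe sets gave 0.22. Ehmt2 (G9a), which dimethylates H3K9, read 1760 and 1459 (-0.27), and its partner Ehmt1 (GLP) 2546 and 2315 (-0.14). Setdb1 read 858 and 841. Dot1l, the H3K79 methyltransferase, was higher by both probe sets, at 286 and 336 and at 269 and 312, within the SD of 0.28.

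Other SET domain members act partly on other proteins. Setd3, an actin histidine methyltransferase, read 1373 and 1340, Setd5 1701 and 1603, and Setd6 1003 and 900. Setd4 read 149 and 189 by one probe set and 155 and 117 by another. The Setd4 probe sets thus had opposite signs.

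**Figure D3:**
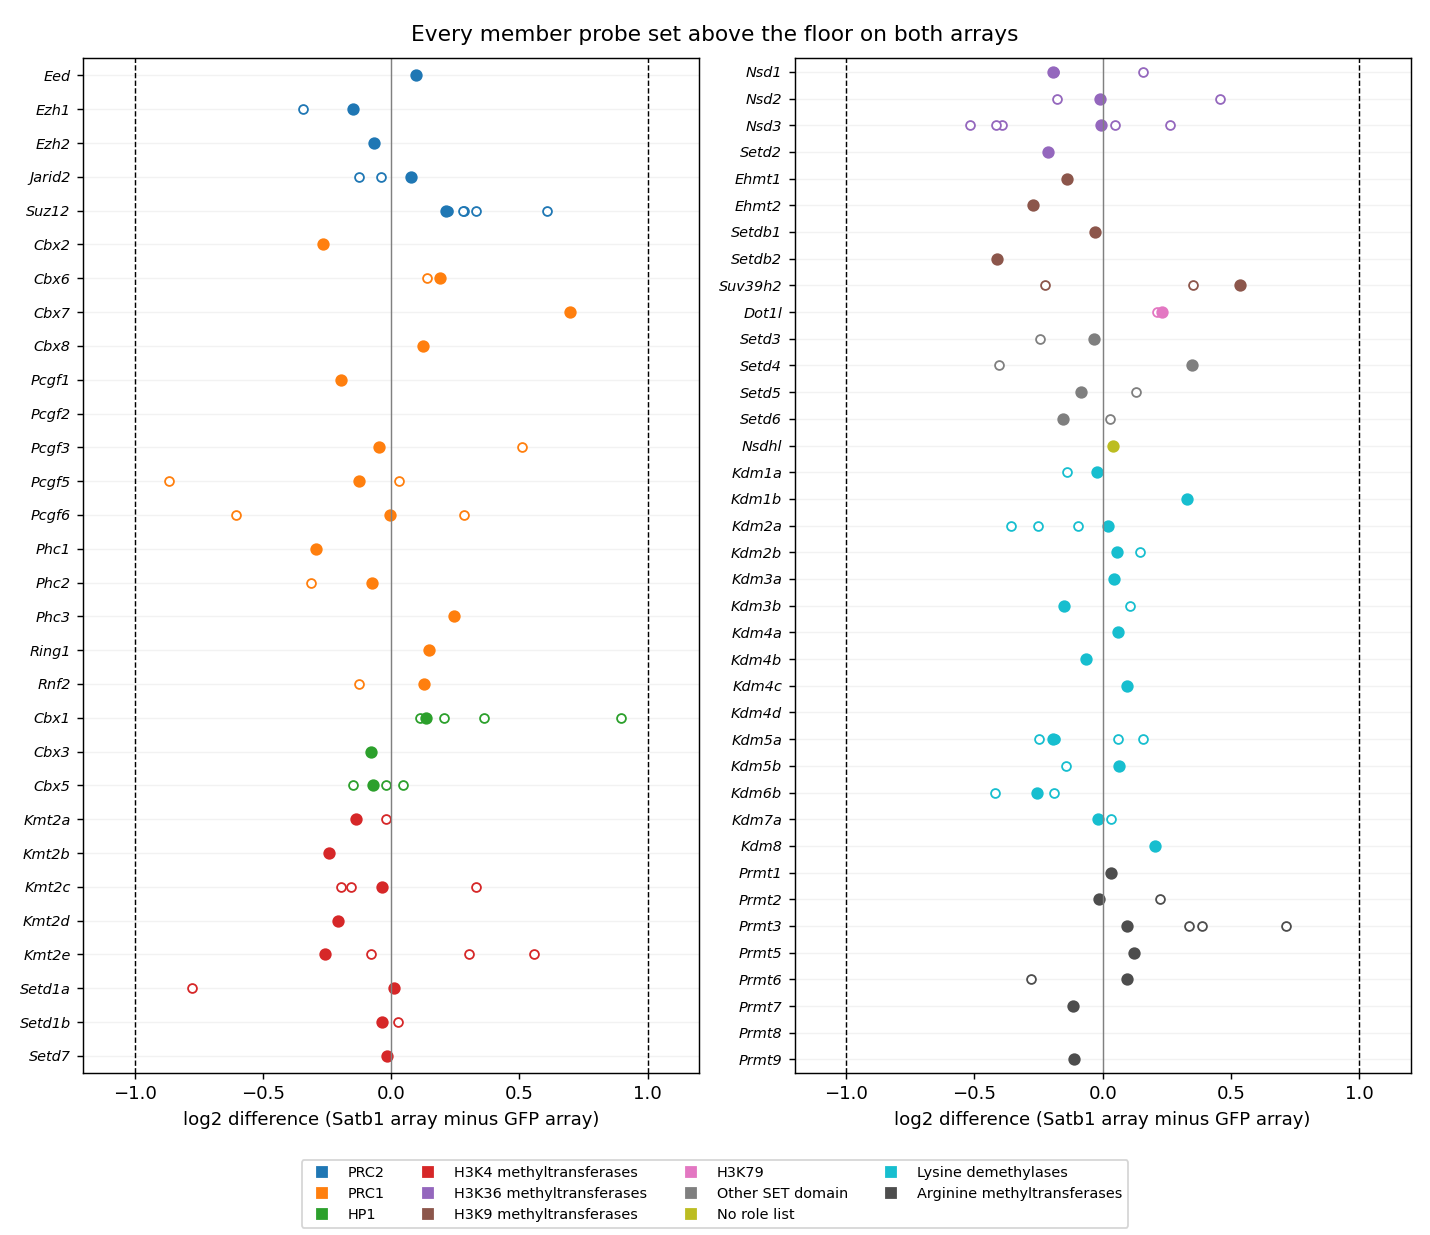
Log2 difference (Satb1 array minus GFP array) of every member probe set with both values above the floor, 1 row per gene; filled points are the brightest probe set of a gene and open points its others, and dashed lines mark 2-fold. The Suz12, Cbx1 and Prmt3 points all lie right of 0 and the Kdm6b points left of it, while those of Nsd3, Pcgf6 and Kmt2e lie on both sides.

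Lysine demethylases had 14 of 15 members above the floor, 8 higher and 6 lower by some amount, with a median of 0.03; after quantile normalization or median centring 10 were higher and 4 lower. Among those acting on H3K4, Kdm1a (LSD1), needed for blood cell differentiation, read 4215 on the GFP array and 4146 on the Satb1 array. Its homologue Kdm1b was the highest of the demethylases, at 336 and 423 by a single probe set, a log2 difference of 0.33 with a within-gene SD of 0.28 and an overall SD of 0.33. Kdm5a read 1671 and 1463, and its second probe set 535 and 470, both differing by -0.19. Over all 5 Kdm5a probe sets above the floor 3 were lower and 2 higher. Kdm5b read 463 and 484.

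The CXXC proteins Kdm2a and Kdm2b act on H3K36, and Kdm2b recruits a variant PRC1 to CpG islands. Kdm2b read 4854 and 5042, and its second probe set 2463 and 2724. Kdm2a read 670 and 680, while its other 3 probe sets above the floor were lower, by up to 0.36. Kdm2b thus was slightly higher by both probe sets, and Kdm2a had no consistent sign.

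Most enzymes acting on H3K9 differed by less than the within-gene SD. Kdm3b was the exception, at 2277 and 2053, a difference of -0.15 that was beyond the within-gene SD of 0.13 and inside the overall SD of 0.18. Kdm3a read 2712 and 2795, Kdm4a 719 and 748, Kdm4c 474 and 506, and Kdm4b 117 and 112. Kdm4d (20.5 and 22.9) was below the floor. Kdm7a, which removes methyl groups from H3K9 and H3K27, read 279 and 275, and Kdm8 307 and 354. Kdm6b, the H3K27 demethylase that opposes PRC2, was the lowest of the demethylases, at 732 on the GFP array and 614 on the Satb1 array. Its other probe sets read 577 and 432 and 123 and 108. All 3 were lower, with log2 differences from -0.42 to -0.19, and remained lower after quantile normalization (-0.37 to -0.04). The amount that median centring adds is too small to turn them (-0.37 to -0.14).

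Suz12, Cbx1, Prmt3 and Kdm6b were the members that had at least 3 probe sets with both values above the floor, all of 1 sign. There were 16 members with so many probe sets, so 4 (25%) had 1 sign throughout, where 33.1% of all genes with so many probe sets had. The difference between the highest and lowest probe set of a gene had a median of 0.57 in these members and 0.42 in all such genes.

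Arginine methyltransferases had 7 of 8 members above the floor, 4 higher and 3 lower (5 and 2 after median centring), with log2 differences from -0.12 to 0.12. Prmt1, the main enzyme of asymmetric arginine dimethylation, read 9367 on the GFP array and 9582 on the Satb1 array. Prmt5, the main enzyme of symmetric dimethylation and needed by blood stem cells, read 1595 and 1737. Prmt3, which acts on a ribosomal protein, read 2718 and 2902. The other Prmt3 probe sets with both values above the floor were also higher, at 198 and 259, 143 and 180, and 118 and 193, and the last was 1.64-fold higher. With a lower floor a further one, at 66.9 and 36.8, was lower. Prmt6 read 510 and 546, Prmt7 978 and 903, Prmt9 496 and 459, and Prmt2 204 and 201. The neuronal Prmt8 (16.1 and 0.8) was below the floor.

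Partner genes of the same complexes that the rule does not take were compared next. Of 61 listed genes, 59 were measured and 56 were above the floor. At 2-fold 0 were counted, against 1.13% of all genes, and at 1.5-fold 2 were higher and 0 lower, against 5.66% in either direction. By sign 29 were higher and 27 lower, with a median of 0.00, and after quantile normalization 24 were higher and 32 lower. The 2 counted were dim. Epop, a PRC2 partner, read 83.2 on the GFP array and 132 on the Satb1 array, a 1.59-fold difference. Smyd1, a muscle methyltransferase, read 71.6 and 111, a 1.54-fold difference. Another dim Smyd1 probe set went the other way, at 105 on the GFP array and 56.1, below the floor, on the Satb1 array.

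Of the 4 brightest partners, the histone chaperone Rbbp4 read 16089 and 16138, and Trim28, which recruits Setdb1, 10364 and 10196. These brightest probe sets were close to equal. Other Rbbp4 probe sets read 4984 and 5818 (log2 0.22), 1532 and 1849 (0.27), and 633 and 633. Rbbp7, the homologue of Rbbp4, read 16481 and 19377, a log2 difference of 0.23 beyond the overall SD of 0.18. Its other probe set differed by 0.08. Dpy30, a COMPASS core subunit, read 7224 and 8008, a difference of 0.15 that was inside it. The 12 COMPASS partners ran from -0.18 to 0.16, with 6 higher and 6 lower, or 9 higher and 3 lower after median centring. Bmi1, the Pcgf4 subunit of PRC1, read 2341 and 2615 by one probe set and 1829 and 1699 by another, so its probe sets disagreed in sign. Among the other demethylases and partners 8 of 9 were higher and 1 lower, where 45.7% of all genes were higher, with a median of 0.11. After quantile normalization 7 of 9 were higher. After median centring, which could not turn a higher one, 8 were. Other lists went the opposite way, where 54.3% of all genes were lower. Of the other histone lysine methyltransferases 6 of 9 were lower, with a median of -0.12. After quantile normalization and after median centring 6 of 9 were lower too, with medians of -0.08 and -0.07. Of the silencing partners 4 of 5 were lower, with a median of -0.10; after median centring 3 of 5 were lower, and with the mean over probe sets 2 of 5.

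**Figure D4:**
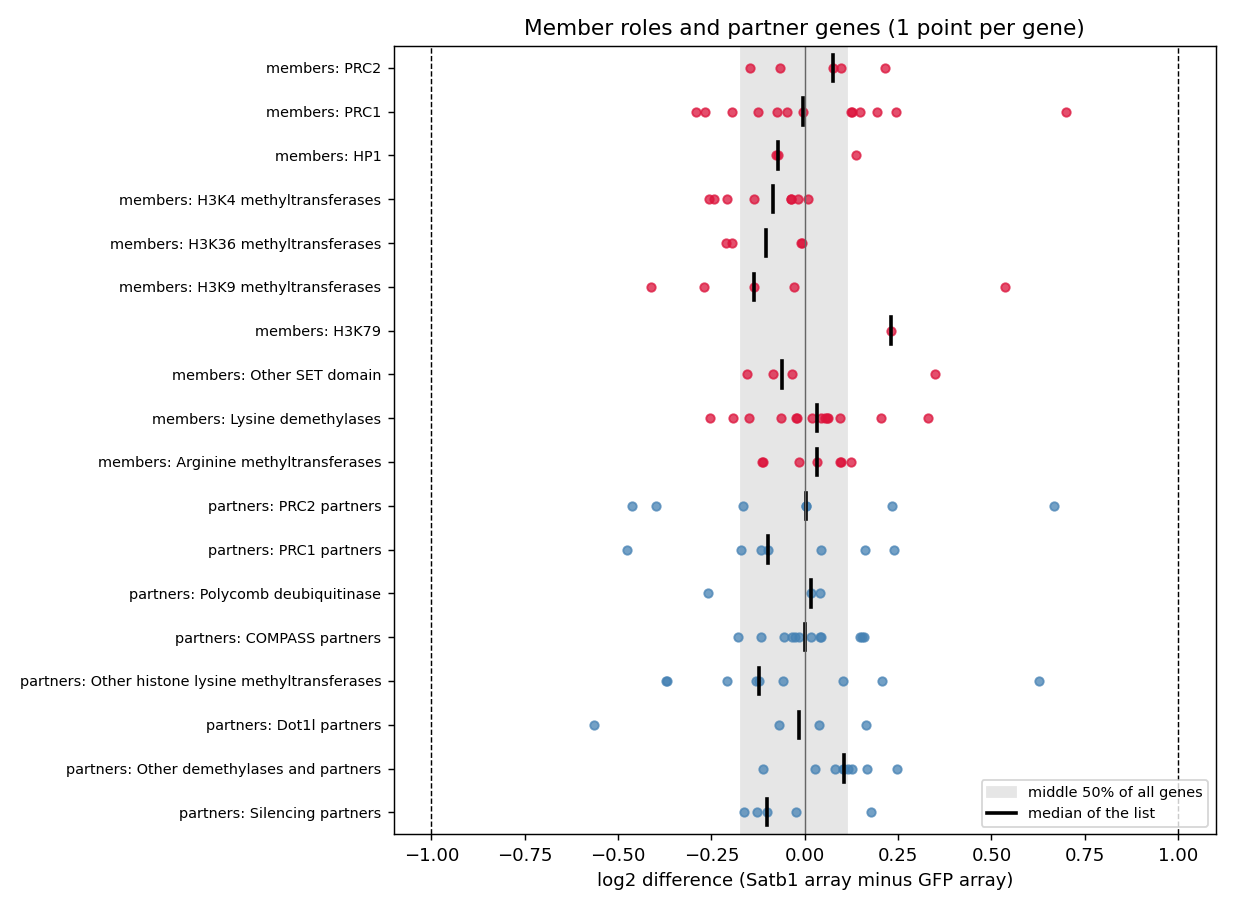
Log2 difference (Satb1 array minus GFP array) of each gene above the floor on both arrays, by member role (red) and partner list (blue); black bars are list medians, dashed lines mark 2-fold and the grey band is the middle 50% of all genes, from -0.17 to 0.11. Every list median except that of the single H3K79 gene lies inside the band, and all points lie between the dashed lines.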

How the data were processed

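RNA of 2 samples was measured on Affymetrix arrays. The deposited values are intensities on a linear scale, made by the authors with MAS5 per the submitters' processing notes. Its version and scaling target are not stated in those sources, and detection calls were not used here. Trimmed by 2% at each end, both arrays had a mean of 497. Arrays have no read depth, and their number limits the precision.

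Of 45037 probe sets, the platform annotation gave 1 symbol to 34945, more than 1 to 932 and no symbol to 9160; 34741 were updated by Entrez ID to the RefSeq table of GRCm38.p6. The brightest probe set by mean log2 intensity stood for its gene. Values under 61.7, the median of all values, were raised to it; differences are log2, Satb1 minus GFP, with no further normalization. With 1 array per group no test was made. Any member could be named; the rule for those described singly was up to 6 per role by intensity plus those 1.5-fold apart, and for partners those 1.5-fold apart and the brightest 4. The text goes beyond it: the remaining members, further probe sets and Bmi1 were added after their values were seen. Members, roles and lists were chosen with earlier results of these data known. Alternatives were other floors, scalings, probe set rules and thresholds. The scripts were tested on simulated data. Python 3.11.15, pandas 2.3.3 and numpy 2.4.6 were used.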

Additional observations from a re-analysis of the deposited data

How the results depend on the processing

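No paired analysis was possible because each group had 1 array, and none could be left out. The count of 0 member genes 2-fold apart held with the floor at the 25th or 75th percentile, after quantile normalization and median centring, with the mean over probe sets, without probe sets that can match several transcripts, and at 3-fold. It was 1 at 1.5-fold (Cbx7) and 1 with no floor (Prmt8, 16.1 and 0.8). The count of 0 member probe sets became 7 at 1.5-fold, 9 with the floor at the 25th percentile, 17 with no floor and 1 after quantile normalization; all 9 at the 25th percentile had at least 1 value at or below 46.6. The partner count of 0 became 2 at 1.5-fold. At 1.5-fold and the main floor, 5.66% of all genes and 7.19% of all probe sets were apart. Such shares are not given here for the other floors and scalings. Counts under those thus describe the setting and are not a result about the members. The member median stayed between -0.03 and 0.03, and was positive only after median centring, which moved the median of all genes to 0.03 as well. Over 65 members and 7 settings, 439 of 454 single-gene differences moved by less than the within-gene SD. Many of them could not move so far. A lower floor or none left each of these differences as it was. Median centring shifted all of them by the same amount, less than the smallest within-gene SD of 0.13. The count thus largely reflects the settings chosen and does not measure how firm a difference is. By sign, 33 members kept theirs in all settings run, 8 fell to 0 under a higher floor without turning, and 24 turned in at least 1 setting. The Satb1 difference stayed between -0.32 and -0.24. Signal near the floor limits what the dim members Cbx3, Cbx7, Cbx8, Kdm4b and Setd4 can show.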
